A study of Mus musculus with 6 samples.

Results

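The genes of cholesterol and fatty acid metabolism were followed in naive CD4+ T cells taken directly from the spleen and from the mesenteric lymph node (mLN), the node that drains the gut. They are 39 of the 55487 genes listed in each library, picked by symbol through their Ensembl identifiers. Of these, 7 belong to the mevalonate arm of sterol synthesis, 9 to the squalene and sterol arm, 6 to regulation, 3 to sterol export and transport, 9 to fatty acid synthesis and 5 to fatty acid activation and oxidation. Both groups are described as wild-type (WT) naive CD4+ T cells (TN) of C57BL6/J mice with no treatment, freshly prepared, and by the labels they differ in the organ alone. Each group holds 3 libraries of polyadenylated RNA. The labels give no age, no sorting gate and no statement on whether the replicates were separate animals, so a p-value here reflects how far the libraries vary, and that variation can be technical.

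Cells build cholesterol from acetyl-CoA through mevalonate, isoprenoids and squalene, and lengthen and desaturate fatty acids from the same precursor. SREBP-2 (from Srebf2) and SREBP-1 (from Srebf1) are transcription factors held in the endoplasmic reticulum with their escort Scap. The Insig proteins retain this complex when sterols are plentiful, and when sterols fall it moves to the Golgi, where the factors are released and switch on sterol and fatty acid enzymes. LXR (Nr1h2 encodes the beta form) responds to oxysterols and drives the export pumps Abca1 and Abcg1 and also Srebf1. In T cells these pathways are best known for the membrane growth that follows activation, while resting naive cells are regarded as relying on mitochondrial oxidation.

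The promoters of 5 genes are printed because they show both directions described below: Msmo1, Idi1 and Hmgcs1 of sterol synthesis were lower in mLN cells, while Fasn of fatty acid synthesis and Acsbg1 of fatty acid activation were higher. Each is read 5′ to 3′ on the gene's strand from 250 bases before to 50 after the start, from RefSeq on GRCm38.p6. Msmo1 is at chr8:64733529-64733828 on the minus strand, Idi1 at chr13:8885356-8885655 on the plus strand and Hmgcs1 at chr13:119690101-119690400 on the plus strand. Fasn is at chr11:120824498-120824797 and Acsbg1 at chr9:54661836-54662135, both on the minus strand. Capitals mark CCAAT on either strand (read as ATTGG on the other) and, in Hmgcs1, TCACNCCAC, the letters of a sterol regulatory element.
Msmo1: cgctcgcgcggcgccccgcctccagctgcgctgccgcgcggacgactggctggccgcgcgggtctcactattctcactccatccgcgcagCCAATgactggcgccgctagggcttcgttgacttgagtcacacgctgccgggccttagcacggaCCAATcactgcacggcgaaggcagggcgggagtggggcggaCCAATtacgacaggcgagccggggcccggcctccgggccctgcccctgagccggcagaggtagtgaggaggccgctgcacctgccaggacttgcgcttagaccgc
Idi1: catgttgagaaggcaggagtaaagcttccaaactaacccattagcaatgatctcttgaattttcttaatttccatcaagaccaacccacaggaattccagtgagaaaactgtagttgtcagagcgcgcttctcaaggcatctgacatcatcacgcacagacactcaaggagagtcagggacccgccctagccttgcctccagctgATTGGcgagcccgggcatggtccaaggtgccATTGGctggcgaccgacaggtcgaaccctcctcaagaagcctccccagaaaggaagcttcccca
Hmgcs1: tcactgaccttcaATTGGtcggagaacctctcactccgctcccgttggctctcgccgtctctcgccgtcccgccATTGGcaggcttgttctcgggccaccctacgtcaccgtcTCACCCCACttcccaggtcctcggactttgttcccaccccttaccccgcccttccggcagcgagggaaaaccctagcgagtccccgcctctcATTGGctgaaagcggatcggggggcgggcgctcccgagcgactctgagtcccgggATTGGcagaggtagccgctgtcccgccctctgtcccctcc
Fasn: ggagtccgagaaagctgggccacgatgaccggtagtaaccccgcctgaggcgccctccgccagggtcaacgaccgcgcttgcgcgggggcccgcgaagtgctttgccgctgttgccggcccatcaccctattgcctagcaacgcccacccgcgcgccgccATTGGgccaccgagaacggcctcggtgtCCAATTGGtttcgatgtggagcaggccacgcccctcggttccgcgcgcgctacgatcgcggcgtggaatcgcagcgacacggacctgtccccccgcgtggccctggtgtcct
Acsbg1: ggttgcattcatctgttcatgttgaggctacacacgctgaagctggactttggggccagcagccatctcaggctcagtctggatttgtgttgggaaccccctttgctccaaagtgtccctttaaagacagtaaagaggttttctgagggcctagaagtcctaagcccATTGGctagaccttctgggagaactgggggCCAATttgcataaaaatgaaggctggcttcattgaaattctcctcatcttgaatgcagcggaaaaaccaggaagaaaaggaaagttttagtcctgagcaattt

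Msmo1 held 3 CCAAT matches, Idi1 2, Hmgcs1 4, Fasn 3 and Acsbg1 2. In Fasn a match on one strand overlaps one on the other by 2 bases. The RefSeq table held windows for 30 of the 39 genes, and 22 of these (73.3%) had CCAAT, against 43.1% of the 8920 tested genes in that table and 37.4% of all 32851 windows. Among genes in the table the motif was found in 8 of 9 that were lower in mLN cells, 5 of 8 that were higher and 9 of 12 that were not called. It was in 11 of 12 sterol synthesis genes. TCACNCCAC was found, among the 30, in Hmgcs1 alone, against 1.36% of the tested genes in the table and 1.24% of all windows. Only exact matches to these letters were counted, so the count does not show which promoters lack a sterol regulatory element. The E-box CACGTG was found in 7 of the 30 and in none of the promoters printed here, against 12.1% of the tested genes in the table and 7.15% of all windows. The letters alone are a description and do not show binding.

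Library totals ran from 13205499 to 20054205 expected counts, so the floor of 3 counts in a library lay between 0.15 and 0.227 CPM (counts scaled by the library's total alone), for counting error only. Fold changes come from the fit, which adds TMM (trimmed mean) factors; these place them -0.0265 from the log2 ratio of the CPM. Of 12486 genes tested with edgeR's quasi-likelihood test, 29.6% were called at an adjusted p under 0.05, 16.1% higher and 13.5% lower in mLN cells. The Spearman correlation of log2 fold change with transcript length across these genes was 0.37: in 10 bins of length, the shortest (median 703 nt) had a median log2 fold change of -0.37 and the longest (median 5957 nt) one of 0.24. Genes share libraries, so this is a description. Naive T cell markers summed to between 8499 and 8739 CPM in spleen and between 7890 and 8028 CPM in mLN libraries, and all 13 were detected. Markers of several other cell types were higher in spleen: macrophage genes (14 markers) summed to between 42.4 and 46.3 against between 3.47 and 5.14 CPM, neutrophil genes (9) to between 51.9 and 52.2 against between 0.151 and 1.70, and B cell genes (10), most of it Ighm, to between 588 and 630 against between 367 and 396. Called lower in mLN were 7 of 8 tested macrophage, 8 of 8 tested neutrophil and 9 of 10 tested B cell markers. Dendritic cell markers (7) summed to between 5.80 and 9.77 against between 0.757 and 1.18 CPM, and 2 of the 3 tested were lower. Of 8 adipocyte markers, 5 (Plin1, Lep, Cfd, Pck1 and Retn) were at 0 in all 6 libraries, and only Lipe, a lipase of many tissues, passed 1 CPM; the 8 summed to between 9.29 and 13.9 CPM in spleen and between 14.4 and 16.8 in mLN. Markers of other T and NK cells (8) summed to between 25.5 and 29.8 against between 20.7 and 28.3 CPM, which overlap. The 5 erythroid markers summed to at most 0.530 CPM, and of 9 stromal and endothelial markers 8 stayed under 1 CPM. The remaining marker, Pecam1, was at 246, 233 and 241 CPM in spleen and 205, 220 and 204 CPM in mLN. It was called lower in mLN (log2 fold change -0.22, adjusted p = 0.00967). The part of these cells in the results that follow was not tested. In bulk samples fewer cells of a type and less RNA per cell cannot be told apart.

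Of the 39 genes, 38 passed the filter on low counts, and 24 of them (63.2%) were called, against the 29.6% of all tested genes given above. The share called rises with level: among the 8283 genes with a mean of at least 10 CPM (here with TMM factors) it was 40.7%. In mLN cells 10 of the 38 were higher (26.3%, against 16.1%), 14 were lower (36.8%, against 13.5%) and 14 were not called. The genes were chosen with earlier results of these data known, so these shares are descriptions and no test of the list. The median log2 fold change (mLN minus spleen) was -0.08, against -0.01 over all tested genes. The steps went different ways. Of 16 sterol synthesis genes 11 were lower and 0 were higher by edgeR (also 0 at an unadjusted p under 0.05, and 0 by DESeq2; on log2(TPM + 1) limma called Dhcr7 higher), while 3 of 6 regulators, 2 of 3 export and transport genes, 3 of 8 tested fatty acid synthesis genes and 2 of 5 activation and oxidation genes were higher. The 3 mLN libraries lay apart from the 3 spleen libraries in CPM in 28 of the 38, against 41.9% of all tested genes; these 28 hold the 24 that were called. In TPM (a deposited abundance that is also scaled by transcript length) 25 of the 38 were apart, against 41.3% of all tested genes. Of the 24 called, Hmgcs1, Fdft1, Sc5d and Elovl5 overlapped in TPM. By an exact permutation test on 3 against 3 libraries the smallest p is 0.1, so single genes rest on the fit across all genes.

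**Figure D1:**
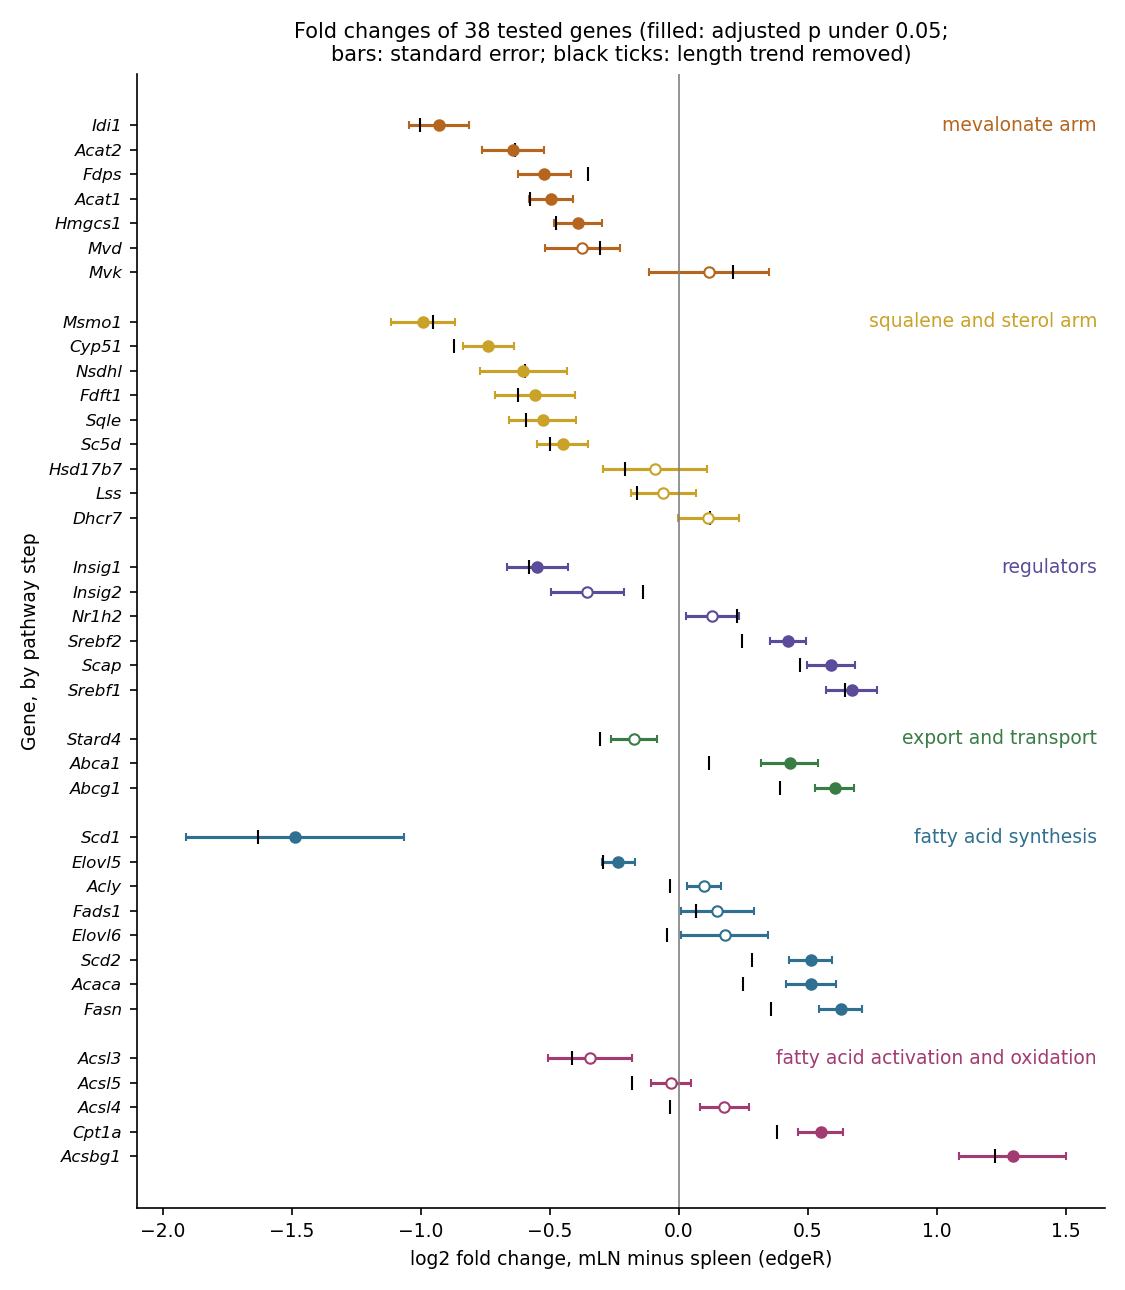
Log2 fold change (mLN minus spleen, edgeR) on the horizontal axis for the 38 tested genes, grouped by pathway step. Filled points were called at an adjusted p under 0.05, open ones were not, bars are standard errors and black ticks show the value with the length trend removed; the 11 called sterol synthesis genes all lie left of 0.

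The mevalonate arm turns acetyl-CoA into farnesyl diphosphate, and 5 of its 7 genes were lower in mLN cells, against 13.5% of all tested genes. The arm's median log2 fold change was -0.50. Idi1 (ENSMUSG00000058258, chr13:8885501-8892451), which isomerises the isoprene unit, had the largest drop of the arm. Its levels were 57.4, 49.8 and 44.4 CPM in spleen replicates 1, 2 and 3 and 28.4, 28.1 and 24.7 CPM in mLN replicates 1, 2 and 3, a log2 fold change of -0.93 ± 0.12 (SE; adjusted p = 3.69e-06), or 1.90-fold lower. Acat2, the cytosolic thiolase that makes acetoacetyl-CoA, stood at 39.4, 38.3 and 37.9 CPM in spleen and at 26.0, 28.1 and 21.6 CPM in mLN (log2 fold change -0.64 ± 0.12, adjusted p = 3.16e-04). Every mLN library of both genes lay below every spleen library.

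Fdps, which joins the isoprene units to farnesyl diphosphate, varied little within either group. It measured 43.9, 43.3 and 42.8 CPM in spleen and 30.5, 31.4 and 30.4 CPM in mLN libraries (log2 fold change -0.52 ± 0.10, adjusted p = 5.87e-04). Acat1, the mitochondrial thiolase that serves ketone body use, was at 80.6, 84.6 and 85.9 CPM against 56.3, 60.6 and 64.4 CPM (log2 fold change -0.50 ± 0.09, adjusted p = 1.40e-04). It was listed with this arm, so the counts, medians and sums given for sterol synthesis include it. Hmgcs1, which makes HMG-CoA in the cytosol, was at 58.8, 67.5 and 61.6 CPM against 46.8, 48.8 and 50.4 CPM (log2 fold change -0.39 ± 0.09, adjusted p = 0.00252). The groups of these 3 genes did not overlap in CPM. Per transcript length, Hmgcs1 did overlap: its TPM was 23.6, 27.2 and 24.8 in spleen and 27.0, 25.6 and 23.9 in mLN. Mvk, mevalonate kinase, ranged from 6.51 to 11.1 CPM over the 6 libraries and was not called (adjusted p = 0.754). Mvd, which decarboxylates the diphosphate, was lower in each mLN library, with 19.5, 18.9 and 19.1 CPM against 15.4, 15.4 and 14.4 CPM, but did not pass the threshold (log2 fold change -0.37 ± 0.15, adjusted p = 0.0585).

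The squalene and sterol arm makes squalene, closes it into lanosterol and trims this to cholesterol. Here 6 of 9 genes were lower in mLN cells and 0 were higher, against 13.5% and 16.1% of all tested genes. The arm's median log2 fold change was -0.53. Msmo1 (ENSMUSG00000031604, chr8:64718139-64733792), which oxidises the methyl groups at carbon 4, fell the most. It stood at 38.1, 40.0 and 38.8 CPM in spleen and at 19.3, 23 and 17.8 CPM in mLN libraries, a log2 fold change of -0.99 ± 0.12 (adjusted p = 3.74e-06), or 1.99-fold lower. Cyp51 (ENSMUSG00000001467, chr5:4081145-4104746), lanosterol demethylase, was at 67.7, 66.9 and 57.0 CPM against 41.4, 38.8 and 36.8 CPM (log2 fold change -0.74 ± 0.10, adjusted p = 8.49e-06). In both genes the highest mLN library lay below the lowest spleen library. An exon stretch of 166 of 4415 bases of Cyp51 lies opposite Akap9, which had a mean count of 3440 against 834 for Cyp51. The strand setting of the counting is not given in the sources used here.

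Nsdhl, the next enzyme of the demethylation at carbon 4 after Msmo1, was at 14.3, 18.4 and 17.9 CPM in spleen and 11.2, 11.1 and 11.8 CPM in mLN (log2 fold change -0.60 ± 0.17, adjusted p = 0.00935). Without spleen replicate 2 its log2 fold change was -0.54 (adjusted p = 0.0503). Fdft1, squalene synthase, was at 23, 31.1 and 21.3 CPM against 16.6, 19.3 and 16.6 CPM (log2 fold change -0.56 ± 0.15, adjusted p = 0.00885). Without spleen replicate 2, its highest library, the log2 fold change was -0.38 (adjusted p = 0.102). Of its 4227 exon bases, 774 lie opposite Ctsb, which had a mean count of 2467 against 347 for Fdft1, so its level is uncertain. Sqle, which oxidises squalene, was at 26.2, 25.8 and 26.9 CPM against 20.1, 18.3 and 17.4 CPM (log2 fold change -0.53 ± 0.13, adjusted p = 0.00370). Sc5d, the sterol C5 desaturase, was at 55, 58.8 and 51.2 CPM against 43.5, 38.2 and 41.2 CPM (log2 fold change -0.45 ± 0.10, adjusted p = 0.00147). In all 4 genes each mLN library was below each spleen library in CPM.

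Not called were 3 genes of the arm. Lss, which closes squalene epoxide into lanosterol, ranged from 24.0 to 30.5 CPM (log2 fold change -0.06 ± 0.12, adjusted p = 0.766), Hsd17b7, a ketoreductase, from 9.0 to 13.6 CPM (log2 fold change -0.09 ± 0.20, adjusted p = 0.780) and Dhcr7, the last reductase, from 27.6 to 34.1 CPM (log2 fold change 0.11 ± 0.12, adjusted p = 0.525). Per length Dhcr7 was apart, with 17.6, 18.8 and 16.3 TPM in spleen and 27.2, 27.7 and 21.0 TPM in mLN; limma called it higher on log2(TPM + 1) (0.49, adjusted p = 0.0361) and not with libraries centred on their medians (0.25, adjusted p = 0.270). The groups of all 3 overlapped in CPM. Summed over both arms, TPM was 335, 347 and 320 in spleen and 293, 286 and 274 in mLN libraries, with means of 334 ± 13.6 and 284 ± 9.58 (SD, n = 3 each). The sums did not overlap.

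**Figure D2:**
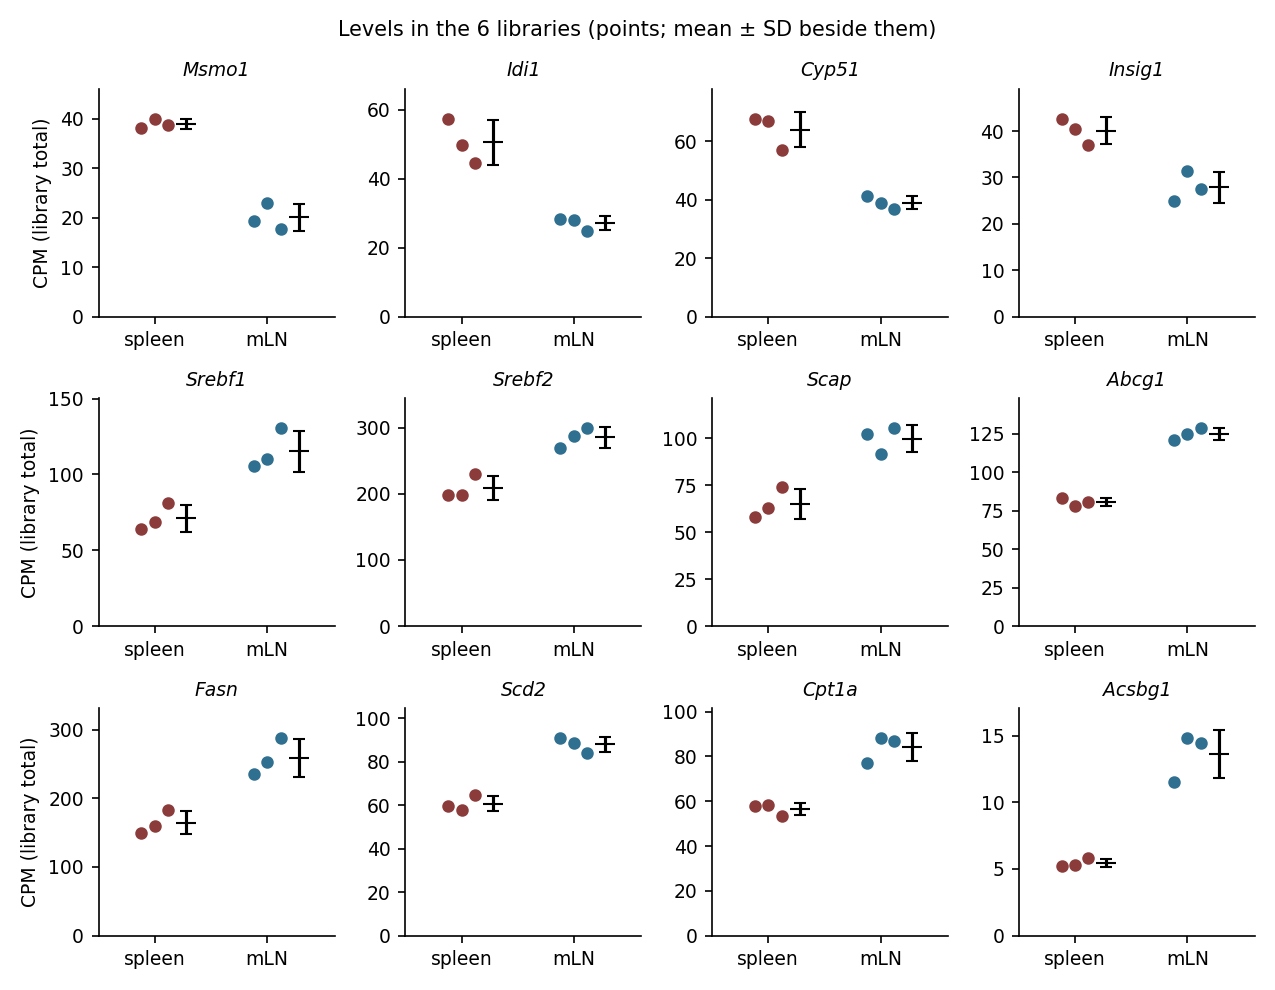
CPM (counts over the library's total) in each library for 12 called genes, with spleen and mLN libraries as points and the mean ± SD (n = 3) beside them; axes start at 0. For Idi1 and Msmo1 every mLN point lies below every spleen point, and for Srebf1, Abcg1, Fasn and Acsbg1 every one lies above.

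The regulators were mixed: 3 of 6 were higher in mLN cells and 1 was lower, against 16.1% and 13.5% of all tested genes. Srebf1 (ENSMUSG00000020538, chr11:60199089-60222581), which encodes both SREBP-1 forms, was at 63.8, 68.4 and 81.1 CPM in spleen and 105, 110 and 130 CPM in mLN (log2 fold change 0.67 ± 0.10, adjusted p = 3.04e-05), or 1.59-fold higher. Scap, the escort, was at 58.3, 63.1 and 73.9 CPM against 102, 91.8 and 105 CPM (log2 fold change 0.59 ± 0.09, adjusted p = 6.76e-05). Srebf2, which encodes SREBP-2, was at 199, 198 and 230 CPM against 269, 287 and 299 CPM (log2 fold change 0.42 ± 0.07, adjusted p = 9.08e-05). All 3 were higher in each mLN library than in any spleen library. In Srebf1, 109 of 5634 exon bases lie opposite Rai1, which had a mean count of 2164 against 1535 for Srebf1. In Scap, 985 of 7443 lie opposite 5830462I19Rik, which had a mean count of 34 against 1355 for Scap.

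Insig1, which retains Scap and is itself a target of the SREBPs, went the other way, with 42.7, 40.5 and 36.9 CPM in spleen and 24.8, 31.5 and 27.4 CPM in mLN (log2 fold change -0.55 ± 0.12, adjusted p = 0.00120). Insig2, the second retention protein, ranged from 21.0 to 26.6 CPM in spleen and from 17.6 to 21.4 CPM in mLN and was not called (adjusted p = 0.0632). Nr1h2 ranged from 81.3 to 110 CPM and was not called (adjusted p = 0.373). Within each library the ratio of Srebf1 to Insig1 in TPM was 1.69, 1.54 and 2.05 in spleen and 5.39, 3.66 and 4.23 in mLN, so the lowest mLN ratio was above the highest spleen ratio. The ratio of Scap to Insig1 was 0.767, 1.19 and 1.29 against 2.98, 2.06 and 2.33. Srebf1 also stood higher relative to Srebf2 in mLN libraries, with ratios of 0.933, 0.779 and 0.791 against 0.674, 0.550 and 0.634. These pairs were picked with the values known, and the ratios are descriptions.

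Both sterol export pumps were higher in mLN cells. Abcg1 (ENSMUSG00000024030, chr17:31057675-31117988), which passes cholesterol to lipoproteins, was at 83.2, 78.1 and 80.3 CPM in spleen and 121, 124 and 128 CPM in mLN (log2 fold change 0.60 ± 0.08, adjusted p = 4.52e-06). Abca1, which loads lipid-poor apolipoprotein, was at 27.8, 28.6 and 28.4 CPM against 40.6, 39 and 36.8 CPM (log2 fold change 0.43 ± 0.11, adjusted p = 0.00470). In both genes the groups were apart. With the length trend removed Abcg1 kept 0.39 with a call, while Abca1, among the longest transcripts here, came to 0.12 (adjusted p = 0.493). Stard4, which moves sterol between membranes, was lower by -0.17 on the log2 scale with no call (adjusted p = 0.147), with 60.1, 58.8 and 64.5 CPM against 54.6, 57.8 and 53.3 CPM; with the length trend removed it was called lower (-0.31, adjusted p = 0.0135). Macrophages also express both pumps; their marker sums, lower in mLN libraries, are given above, and their part in the pump levels was not tested.

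Fatty acid synthesis was split. Fasn (ENSMUSG00000025153, chr11:120805846-120824547), the synthase that builds palmitate, was at 150, 160 and 183 CPM in spleen and 235, 253 and 288 CPM in mLN (log2 fold change 0.63 ± 0.08, adjusted p = 1.27e-05), or 1.54-fold higher. Acaca, which makes the malonyl-CoA that Fasn uses, was at 39.6, 42.0 and 35.9 CPM against 59.2, 56.7 and 54.9 CPM (log2 fold change 0.51 ± 0.10, adjusted p = 4.22e-04). Acly, which supplies cytosolic acetyl-CoA, ranged from 230 to 264 CPM in spleen and from 264 to 283 CPM in mLN and was not called (adjusted p = 0.30). Acaca and Fasn are among the longest transcripts (6514 and 6793 nt): with the length trend removed Fasn kept 0.36 with a call and Acaca came to 0.25 (adjusted p = 0.0680).

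The stearoyl-CoA desaturases, which put the first double bond into saturated fatty acids, moved in opposite directions. Scd2 (ENSMUSG00000025203, chr19:44293674-44306864) was at 59.5, 58.1 and 64.6 CPM in spleen and 91.1, 88.8 and 84.3 CPM in mLN (log2 fold change 0.51 ± 0.08, adjusted p = 8.66e-05). Scd1 (ENSMUSG00000037071, chr19:44394455-44407879), its neighbour on the chromosome, was scarce, with 59, 76 and 58 counts in spleen and 17, 12 and 46 counts in mLN libraries. That is 4.15, 4.25 and 3.58 CPM against 1.05, 0.909 and 2.29 CPM (log2 fold change -1.49 ± 0.42, adjusted p = 0.0101). The groups did not overlap for either gene, and mLN replicate 3 had the highest Scd1 of its group. Scd2 was the more abundant desaturase per length in each library, with TPM ratios to Scd1 of 6.70, 9.30 and 15.9 in spleen and 48.0, 86.7 and 32.2 in mLN. The close copies Scd3 and Scd4 had at most 16 counts in a library. Scd1 is also a gene of adipocytes and of macrophages. In mLN libraries the macrophage marker sum was lower and the adipocyte sum, nearly all Lipe, was higher, and the part of these cells was not tested.

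Elovl5, which elongates polyunsaturated fatty acids, was slightly lower in mLN, with 199, 213 and 207 CPM against 184, 177 and 175 CPM (log2 fold change -0.23 ± 0.06, adjusted p = 0.00807). Per length its groups overlapped, with TPM of 95.4, 102 and 101 in spleen and 105, 101 and 97.9 in mLN. Elovl6, which elongates palmitate, ranged from 13.7 to 22.4 CPM (adjusted p = 0.477). Fads1, the delta-5 desaturase, ranged from 16.8 to 17.4 CPM in spleen and from 18.9 to 20.1 CPM in mLN (adjusted p = 0.481). Neither was called. Fads2, the delta-6 desaturase, did not pass the filter: it had 3, 3 and 5 counts in spleen and 0, 0 and 1 in mLN, at or near the floor.

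Of the activation and oxidation genes, Acsbg1 (ENSMUSG00000032281, chr9:54604877-54661870), an acyl-CoA synthetase for long and very long chains, had the largest rise of the 38. It was at 5.2, 5.32 and 5.80 CPM in spleen and 11.5, 14.8 and 14.4 CPM in mLN (log2 fold change 1.29 ± 0.21, adjusted p = 5.93e-05), or 2.45-fold higher. Cpt1a (ENSMUSG00000024900, chr19:3322334-3385733), which admits fatty acids to the mitochondrion and is inhibited by malonyl-CoA, was at 57.9, 58.3 and 53.3 CPM against 77.1, 88.4 and 87.1 CPM (log2 fold change 0.55 ± 0.09, adjusted p = 6.07e-05). In both the lowest mLN library was above the highest spleen library. The other acyl-CoA synthetases were not called: Acsl3 ranged from 15.1 to 26.5 CPM (adjusted p = 0.120), Acsl4 from 60.6 to 80.1 CPM (adjusted p = 0.184) and Acsl5 from 118 to 139 CPM (adjusted p = 0.804). Acsl3 shares 244 exon bases with Utp14b on the same strand, so its count is uncertain. In Acsl5, 404 exon bases lie opposite Zdhhc6, which had a mean count of 508 against 2084 for Acsl5.

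**Figure D3:**
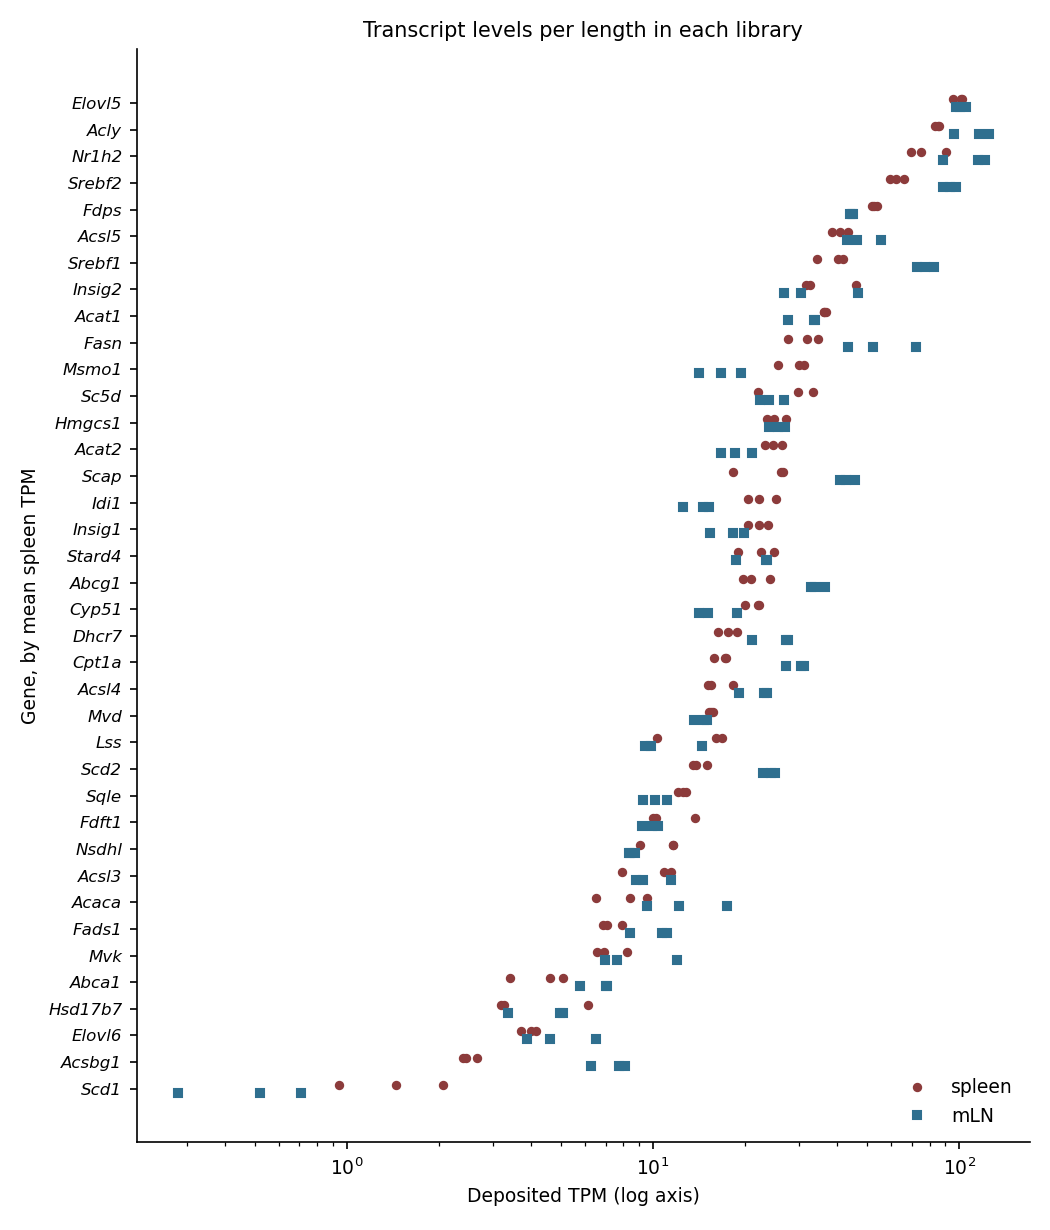
TPM of each gene, a level per transcript length, in each spleen (circles) and mLN (squares) library on a log axis, ordered by mean spleen TPM, with Fads2 (at most 0.130 TPM) left out. Elovl5, Acly, Nr1h2 and Srebf2 are the highest in both organs and Scd1 is the lowest.

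Compared per transcript length, Elovl5 was the highest gene in spleen cells (99.4 ± 3.52 TPM, SD, n = 3), followed by Acly (84.7 ± 1.36), Nr1h2 (78.4 ± 11) and Srebf2 (62.5 ± 3.23). In mLN cells the order was Acly (112 ± 15), Nr1h2 (108 ± 17.6), Elovl5 (101 ± 3.73) and Srebf2 (93.2 ± 4.45), and the first 3 did not differ beyond their spread. Msmo1 held rank 11 of 39 in spleen and 22 in mLN, and Idi1 rank 16 and 25. Srebf1 moved from 7 to 5, Fasn from 10 to 6, Abcg1 from 19 to 11 and Cpt1a from 22 to 13. Scd1 (1.48 ± 0.56 TPM in spleen, 0.50 ± 0.22 in mLN) was the lowest of the genes above the filter in both organs, and Acsbg1 stood next to it in spleen at 2.51 ± 0.14 TPM. Genes of one step thus differed widely in level, as did neighbours such as Fdps (52.8 ± 1.07 TPM in spleen) and Fdft1 (11.3 ± 2.05).

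**Figure D4:**
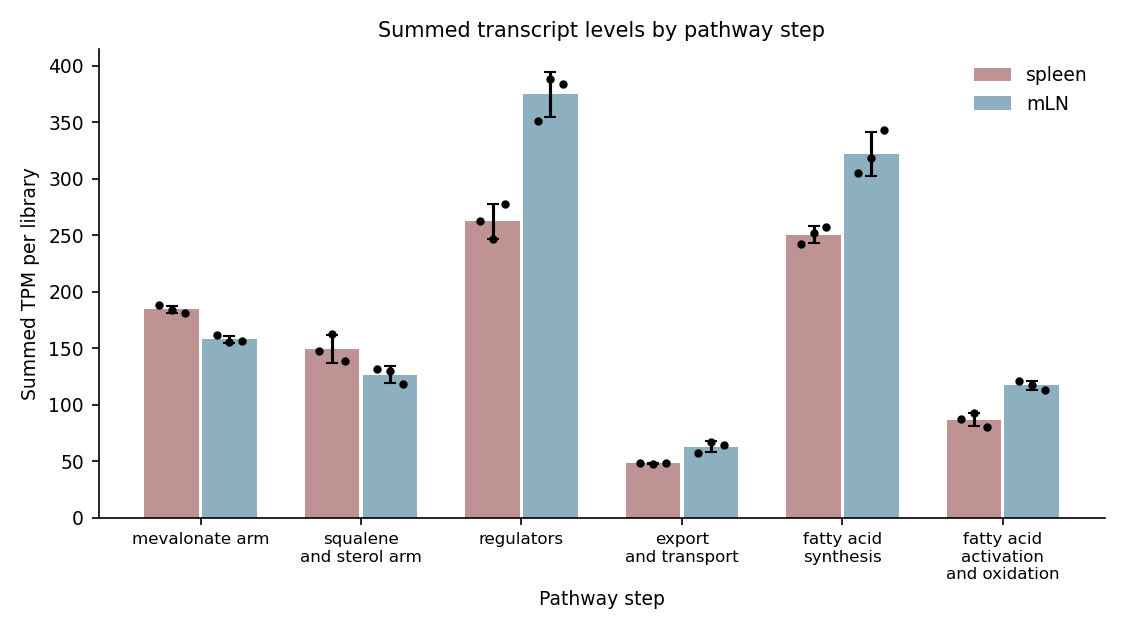
Summed TPM of each pathway step by organ: bars are means, error bars SD (n = 3) and points the libraries. Both arms of sterol synthesis are lower in the 3 mLN libraries than in the 3 spleen libraries, and the sums of the other 4 steps are higher.

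Summed over a step, TPM of the regulators averaged 262 ± 15.7 in spleen and 375 ± 20.3 in mLN libraries, that of export and transport 48.0 ± 0.356 and 62.9 ± 5.10, that of fatty acid synthesis 250 ± 7.42 and 322 ± 19.6, and that of activation and oxidation 86.7 ± 5.94 and 117 ± 3.76 (SD, n = 3 each). The median tested gene was itself 0.21 higher in mLN on the log2(TPM + 1) scale, so sterol synthesis went against that shift and the other steps with it. On that scale uncorrected, limma called 10 of the 38 genes higher and 2 lower (Idi1 and Msmo1), against 22.1% and 3.08% of all tested genes. Of these member calls 83.3% were higher, in place of 41.7% of those by edgeR on counts. Over all tested genes limma there called 2757 higher and 384 lower, so most calls were higher in general. With each library centred on its median the counts were 6 and 9 (against 6.39% and 7.58%), and 40.0% of calls were higher. Calls not kept on the centred scale were those of Abcg1 (adjusted p = 0.0563), Fasn (0.0875), Acaca (0.346), Abca1 (0.407), Nsdhl (0.0516), Elovl5 (0.0762), Sc5d (0.113), Fdft1 (0.128) and Hmgcs1 (0.201). Between steps, the ratio of Fasn to Idi1 in TPM was 1.09, 1.44 and 1.69 in spleen and 2.86, 3.60 and 5.73 in mLN, and that of Abcg1 to Msmo1 was 0.699, 0.774 and 0.764 against 1.96, 1.89 and 2.39. Each ratio sets a gene called higher against one called lower, so its direction follows from those calls.

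**Figure D5:**
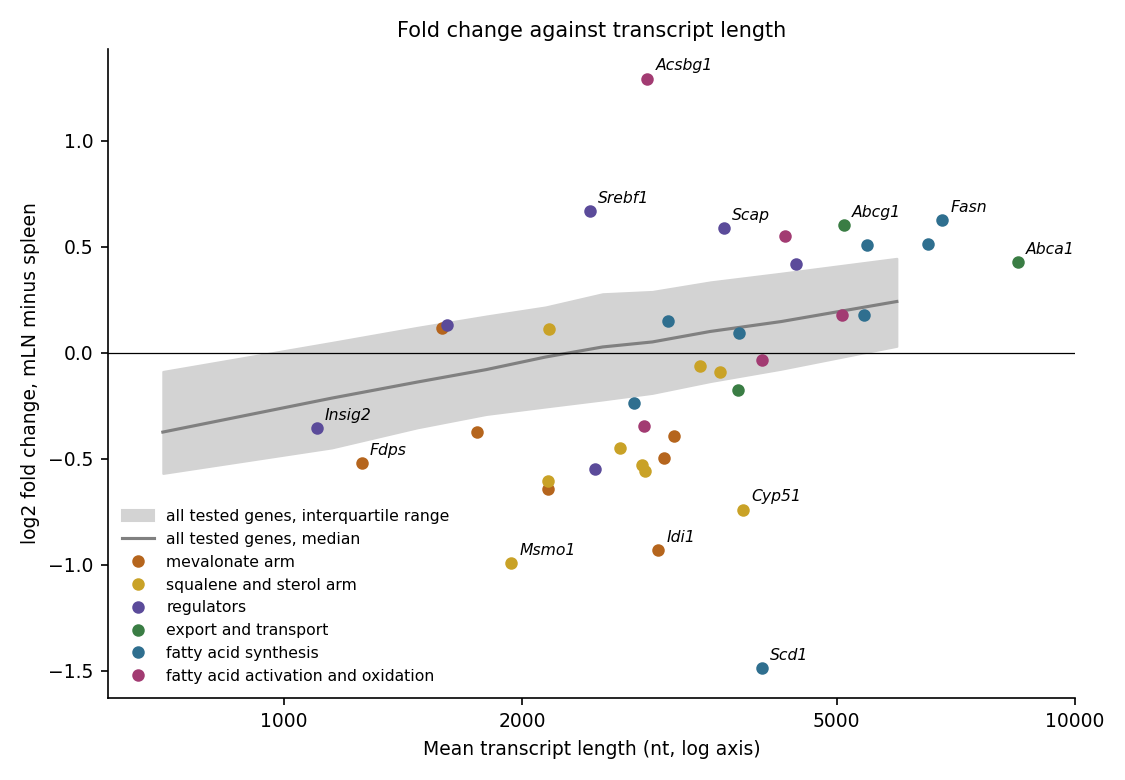
Log2 fold change against transcript length (log axis) for the 38 genes by step, over the median (line) and interquartile range (band) of all tested genes in 10 bins of length. Called sterol synthesis genes lie below the band at lengths from 1254 to 3801 nt.

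Because fold change rose with transcript length across all genes, each gene was set beside tested genes of its own length bin. All 14 genes called lower lay below the interquartile range of their bin. Of the 10 called higher, 9 lay above it and Abca1 lay within. Calls and positions rest on the same fold changes, so a called gene tends to lie outside its band. These positions are therefore descriptions and no test of the length trend. Of the 16 sterol synthesis genes 12 lay below and 0 above. Fdps, the shortest of those called at 1254 nt, had the smallest distance, with -0.52 against a bin median of -0.21; Idi1 stood at -0.93 against 0.05. With the smooth trend on length removed before the test, 8 of the 38 were called higher and 15 lower, against 11.7% and 11.2% of all tested genes. The 11 sterol synthesis calls stood, the export step went from 2 higher to 1 higher and 1 lower, and the median of fatty acid synthesis moved from 0.16 to 0.02.

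RSEM's mean transcript length, a separate readout that shifts when the mix of isoforms shifts, was apart between the groups in 3 of 38 genes (1 longer, 2 shorter in mLN), against 10.3% of 10290 genes, so the share lay near the background. Srebf2 was at 4284, 4115 and 4465 nt in spleen and 4569, 4643 and 4576 nt in mLN. Hmgcs1 was at 3264, 3262 and 3252 nt against 2727, 2981 and 3224 nt, and Cpt1a at 4313, 4317 and 4317 nt against 4307, 4295 and 4282 nt. TPM divides by this length and CPM does not.

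A further 52 genes of the same pathways, of which 44 passed the filter, gave 5 higher (11.4%, against 16.1% of all tested genes) and 13 lower (29.5%, against 13.5%). The lists of 6 to 18 tested genes below are short, and main edgeR calls among them are set against the same 16.1% and 13.5%. With the length trend removed the shares of all tested genes were 11.7% higher and 11.2% lower. By limma they were 22.1% and 3.08% on log2(TPM + 1), and 6.39% and 7.58% with libraries centred on their medians. These lists too were chosen with earlier results of these data known, so the shares are descriptions. In sterol synthesis 1 of 6 was lower by edgeR and 0 were higher (also 0 at an unadjusted p under 0.05, and 0 by DESeq2). On log2(TPM + 1) limma called 1 higher, Lbr, a sterol reductase (0.25, adjusted p = 0.0415), named after its value was seen, and did not call Ebp (adjusted p = 0.50). Ebp, the sterol isomerase, was at 32.7 ± 3.76 CPM in spleen and 23.1 ± 4.87 in mLN (log2 fold change -0.52 ± 0.15, adjusted p = 0.00921). Without spleen replicate 2 its adjusted p was 0.0697 and without mLN replicate 2 it was 0.0654. Of the 10 tested genes of sterol uptake, storage and sensing, 4 were higher and 2 lower. Npc2, which binds cholesterol in the lysosome, was lower (562 ± 8.06 against 443 ± 7.54 CPM, adjusted p = 2.50e-05), as was Lipa, the lysosomal lipase (130 ± 5.26 against 110 ± 10.3 CPM, adjusted p = 0.0147). Mbtps1, the Golgi protease that makes the first cut in the SREBPs, was higher (141 ± 6.48 against 180 ± 6.91 CPM, adjusted p = 9.88e-04), as was Soat1, which esterifies cholesterol for storage (38.4 ± 1.05 against 48.4 ± 2.0 CPM, adjusted p = 0.0211). Lipa lost its call without spleen replicate 2 (0.0715) or mLN replicate 3 (0.0609), and Soat1 without mLN replicate 1 (0.0618), mLN replicate 2 (0.0879) or spleen replicate 2 (0.0928). Both lysosomal genes, abundant in macrophages, went down with the macrophage markers given above, whose part was not tested. With the length trend removed, 1 of the 10 was higher and Mbtps1 and Soat1 were not called (adjusted p = 0.0725 and 0.237). On log2(TPM + 1) limma called 3 of the 10 higher and 0 lower, against 22.1% and 3.08% of all tested genes. With libraries centred on their medians it called 1 and 1, against 6.39% and 7.58%.

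Of 10 other tested genes that build fatty acid chains, edgeR called 3 lower in mLN cells and 1 higher. On log2(TPM + 1), uncentred or centred on library medians, limma called 0 of the 10 in either direction. Hsd17b12 and Tecr, enzymes that act in the elongation cycle beside the Elovl enzymes, were at 43.7 ± 2.77 against 32.1 ± 5.58 CPM (adjusted p = 0.00581) and at 106 ± 11.9 against 86.5 ± 10.4 CPM (adjusted p = 0.0161). Elovl1, which elongates very long chains, was at 43.4 ± 2.46 against 36 ± 1.24 CPM (adjusted p = 0.0346). Acacb, the mitochondrial form of acetyl-CoA carboxylase, was higher at 1.77 ± 0.36 against 3.86 ± 1.28 CPM (adjusted p = 0.0398). By limma, Hsd17b12 had an adjusted p of 0.471 on log2(TPM + 1) and of 0.0604 with libraries centred on their medians. Tecr lost its call without mLN replicate 1 (0.0680), mLN replicate 2 (0.0860) or spleen replicate 2 (0.115), and with the length trend removed (0.630). Elovl1 lost it with the length trend removed (0.430) and without spleen replicate 1 (0.118), spleen replicate 2 (0.0715), mLN replicate 1 (0.115) or mLN replicate 2 (0.0661). Acacb lost it with the length trend removed (0.140), without spleen replicate 1 (0.123), 2 (0.0550) or 3 (0.0743) and, likewise, without mLN replicate 1 (0.0513) or 3 (0.271).

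Of 18 other tested genes of fatty acid oxidation and its regulation, 7 were lower in mLN cells (against 13.5% of all tested genes), 0 higher and 11 not called, with a median log2 fold change of -0.19. At an unadjusted p under 0.05, 1 was higher (Ppard, a receptor for fatty acids, named after its value was seen), and DESeq2 called 1 higher. Hadhb, the thiolase subunit of the trifunctional protein, was at 116 ± 10.1 CPM in spleen and 86.5 ± 2.54 in mLN (log2 fold change -0.45 ± 0.08, adjusted p = 2.41e-04). Acadm, the medium-chain dehydrogenase, was at 51.2 ± 0.82 against 36.2 ± 2.37 CPM (log2 fold change -0.53 ± 0.10, adjusted p = 3.47e-04). Echs1, the enoyl-CoA hydratase, was at 34.5 ± 2.65 against 22.5 ± 4.45 CPM (log2 fold change -0.65 ± 0.14, adjusted p = 0.00125), and Decr1, needed for unsaturated chains, at 9.76 ± 1.36 against 5.01 ± 0.84 CPM (log2 fold change -0.99 ± 0.24, adjusted p = 0.00272). These 4 kept their calls when any single library was left out. On median-centred log2(TPM + 1), Hadhb (adjusted p = 0.115) and Acadm (0.123) were not called, and 3 of the 18 were lower; on the uncentred scale limma kept none of the 7 calls.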

How the data were processed

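RNA sequencing was done on naive CD4+ T cells from the spleen and the mLN, 3 libraries each. RNA was taken up in RNAiso PLUS and libraries came from a directional NEBNext Ultra II kit, per the labels' protocols. STAR, RSEM and mm10 are named, without versions, per the submitters' processing notes, while the strand setting is not given in the sources used here. Per the file headers, the deposited values include expected counts, which RSEM estimates for each gene and which are not normalized. The deposited TPM and FPKM are scaled for length and depth by the authors, per the file headers, and FPKM entered no result. The deposited lengths are RSEM's mean transcript lengths per gene.

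The 39 genes and all gene lists were chosen with earlier results of these data known. Symbols came from a mouse gene name table (55141 of 55487 identifiers matched), and coordinates and GC content from GENCODE vM21 on GRCm38. Expected counts were rounded and filtered with filterByExpr by group, which left 12486 genes, and the fits used TMM factors; printed CPM are counts over library totals without them. Groups were compared by the quasi-likelihood F test of edgeR (two-sided) with organ as its only term and Benjamini-Hochberg adjustment over all genes tested, at 0.05. Standard errors were taken as the log2 fold change divided by the root of F. Replicates differed beyond sampling noise (chi-square per degree of freedom 5.59 to 11.8). All 39 genes are accounted for, the called ones with each library's value; of each list of other pathway genes, up to 4 called genes with the smallest p are named. Alternatives were DESeq2, limma-voom, upper-quartile or RLE factors, limma on log2(TPM + 1) and on median-centred log2(TPM + 1) and log2(TPM + 0.1), no filter, at least 1 CPM in all libraries, the replicate number as a block, loess trends on length or GC removed (span 0.3), mitochondrial, rRNA and ribosomal protein genes left out, leaving out each library, and a threshold of 0.01. The scripts were tested on simulated data. Software was Python 3.11.15 with pandas 2.3.3, matplotlib 3.10.9 and numpy 2.4.6, and R 4.3.3 with DESeq2 1.42.0, limma 3.58.1 and edgeR 4.0.16.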

Additional observations from a re-analysis of the deposited data

How the results depend on the processing

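Of 24 called genes, 8 kept direction and call in all 20 alternatives: Acsbg1, Cpt1a, Scap, Scd2, Srebf1 and Srebf2 higher, Idi1 and Msmo1 lower. Of 759 values under alternatives 693 kept direction and side of the threshold, 36 lost their call, 14 gained one and 16 changed sign. On log2(TPM + 1), 2 members, 0 other pathway genes and 384 of all genes were lower, and Hmgcs1 (0.018), Hsd17b7 (0.10), Elovl5 (0.027) and Acsl5 (0.22) turned positive. Median-centred, 6 members were higher and 9 lower, 1 and 4 other pathway genes, and 798 and 947 of all genes, with Mvk at -0.017. With a pseudocount of 0.1 these were 6 and 8, 1 and 4, and 768 and 929, with Mvk at -0.0069. With the length trend removed 1 other pathway gene was higher, and Acly (-0.035), Elovl6 (-0.047) and Acsl4 (-0.034) turned negative. With the GC trend removed Mvk (-0.12), Nr1h2 (-0.14) and Acsl5 (0.054) changed sign. Acsl4 was then called higher (adjusted p = 7.04e-04) and Mvd lower (0.00210). Mvd and Insig2 were also called lower with upper-quartile factors, at least 1 CPM in all libraries or the replicate block (0.0280 to 0.0466). Insig2 was called lower without spleen replicate 3 (0.0210), and Acsl3 without spleen replicate 3 (0.0456) or mLN replicate 2 (0.0483). At a threshold of 0.01, 1 other pathway gene was higher and 1069 of all genes were lower. Leaving out a library gave 10 to 10 members higher and 12 to 16 lower, 2 to 4 and 8 to 14 other pathway genes, 1500 to 1970 and 1324 to 1710 of all genes, and 4 to 8 members (3 with all libraries) with transcript lengths apart, a count that smaller groups raise. Over these omissions Hsd17b7 ran from -0.22 to 0.098 (positive without spleen replicate 1), Lss from -0.13 to 0.038 and Acsl5 from -0.10 to 0.017 (positive without mLN replicate 2), and Mvk from -0.15 (without mLN replicate 3) to 0.26; none was called. Except where the setting tests fewer libraries, the cause was not tested. Deviations of libraries with the same replicate number correlated at 0.0223, 0.0023 and 0.0652, so the numbers were not taken to pair them; with the replicate block 10 members were higher and 16 lower, 6 and 16 other pathway genes, and 2566 and 2140 of all genes. Depth limits Scd1 and Fads2, whose counts are low.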
